A study of Arabidopsis thaliana with 14 samples.

Results

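SOC1 (SUPPRESSOR OF OVEREXPRESSION OF CONSTANS 1) and 8 related MADS-box genes with roles in flowering were followed in Arabidopsis thaliana seedlings of 7 groups. The 9 genes were chosen by name among 32548 genes in the deposited tables: SOC1 and its clade relatives AGL14, AGL19, AGL42, AGL71 and AGL72, the FRUITFULL gene FUL, and the related pair AGL24 and SVP. RNA was sequenced from whole seedlings at an age of 11 days, kept on MS plates under 16 h of light (23 °C) and 8 h of dark (21 °C), with 1 g of seedlings taken for each extraction. The 14 libraries came in 2 tables, each with its own pair of wild-type Col-0 libraries. The first table held Col-0, fve(-/-) and the suvh2(-/-);suvh9(-/-) double mutant, called suvh2/9. The second held Col-0, rrm1(-/-), the triple mutant pdp1(-/-);pdp2(-/-);pdp3(-/-), called pdp1/2/3, together with a line carrying all 4 mutations, pdp1/2/3;rrm1. Every group had 2 libraries. The labels give no allele names and do not say whether replicates were grown separately. Each p-value therefore reflects only spread between libraries of the same group, which may be technical. That spread was pooled over all groups of a table and moderated towards that of other genes of like level.

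MADS-box proteins bind DNA at short AT-rich sequences called CArG boxes and work as dimers and larger complexes. SOC1 collects signals from the photoperiod, autonomous, vernalization, gibberellin and age pathways and switches on the floral meristem program in the shoot apex. FLC and SVP repress it directly, the FT and FD proteins activate it, and SOC1 and AGL24 activate each other. FVE is an autonomous-pathway protein that keeps FLC low, SUVH2 and SUVH9 act in RNA-directed DNA methylation, and PDP proteins carry a PWWP domain and partner FVE in flowering control.

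Levels are given in CPM, adjusted counts scaled to a library total of 1e+06, where 1 adjusted count was worth 0.0465 CPM in the first table and 0.0520 CPM in the second. Differences are log2 differences of CPM + 1, mutant minus the Col-0 pair of the same table, from limma fitted over 19090 genes (first table) or 19241 genes (second table), and calls were made where the p adjusted over those genes (Benjamini-Hochberg) was below 0.05. On this scale the change of a gene near 1 CPM is understated. The 3 mutants of the second table share 1 Col-0 pair, and fve and suvh2/9 share the other. Library totals ran from 18609045 to 21722950 adjusted counts. The first rrm1 library and the first pdp1/2/3;rrm1 library stood apart in the form of their low values: 72.8% and 90% of values between 0.5 and 10 adjusted counts lay within 0.2 of a whole number, against 99.8% or more in the other 12. Among the mutated genes, FVE was at 15.3 CPM in fve against 66.5 in Col-0 (log2 -2.05, limma adjusted p = 4.75e-08), and SUVH9 was at 1.03 in suvh2/9 against 41.7 (log2 -4.39, limma adjusted p = 8.13e-11). SUVH2 was at 7.31 against 9.46 and was not called, and the PDP and RRM1 transcripts were not analysed here. Green-leaf markers summed to 3.19e+04 to 4.10e+04 CPM in every library. Of the shoot apical meristem markers, STM was above 0 in every library, while WUS and CLV3 were at or near 0.

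SOC1 is the member on which these mutants differed most. It fell in fve, in rrm1, in pdp1/2/3 and also in pdp1/2/3;rrm1, and was not called in suvh2/9. In the first table SOC1 (AT2G45660) was at 35.3 and 42.2 CPM in the Col-0 libraries, 14.1 and 19.8 in fve, and 45.0 and 50.9 in suvh2/9. The second table had it at 64.0 and 62.4 in Col-0, 42.5 and 46.4 in rrm1, 38.1 and 33.0 in pdp1/2/3, and 25.9 and 23.5 in pdp1/2/3;rrm1. No mutant pair overlapped with its Col-0 pair, and within the second table the order from Col-0 through rrm1 and pdp1/2/3 down to pdp1/2/3;rrm1 held without overlap between neighbours. The ratio of mean levels to Col-0 was 0.438 in fve, 1.24 in suvh2/9, 0.703 in rrm1, 0.562 in pdp1/2/3 and 0.390 in pdp1/2/3;rrm1. In whole seedlings, fewer cells that express a gene and less of its RNA per cell cannot be told apart.

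**Figure D1:**
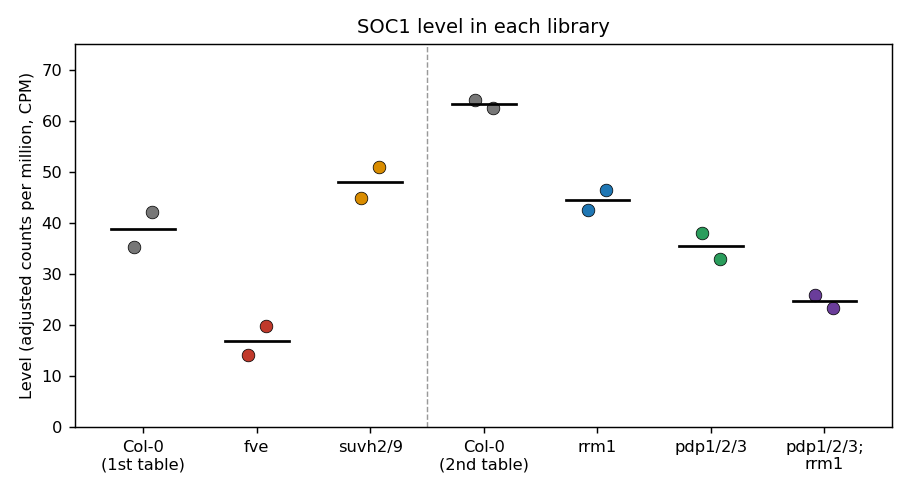
SOC1 level (CPM, axis from 0) in each of the 14 libraries; points are libraries, bars are means of 2, and the dashed line parts the 2 tables, which were normalized separately. The fve libraries lie at 14.1 and 19.8 below both Col-0 libraries of their table, and in the second table the mean steps down from 63.2 in Col-0 to 44.4, 35.5 and 24.7.

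The decrease of SOC1 was largest on the log2 scale in pdp1/2/3;rrm1, at -1.32 (SE 0.0867, limma adjusted p = 3.09e-06). In fve it was -1.16 (SE 0.133, limma adjusted p = 0.000902), in pdp1/2/3 -0.82 (SE 0.0867, limma adjusted p = 5.68e-05), and in rrm1 -0.50 (SE 0.0867, limma adjusted p = 0.0084). For suvh2/9 the difference was 0.30 with a 95% interval of 0.01 to 0.59, and the adjusted p over all genes was 0.725. The rrm1 call had the least margin: it was lost without Col-0 replicate 3 (limma adjusted p = 0.0858), Col-0 replicate 4 (0.064) or rrm1 replicate 1 (0.0825). Without the first rrm1 and first pdp1/2/3;rrm1 libraries together, SOC1 was at -0.44 in rrm1 (limma adjusted p = 0.0709) and at -1.39 in pdp1/2/3;rrm1 (limma adjusted p = 2.58e-05). The fve call was lost once the filter on low values was dropped (limma adjusted p = 0.068).

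Among the 9 genes, 7 passed the filter of 1 CPM in 2 libraries of a table and were tested in both tables. In fve 2 of the 7 were called, SOC1 lower and AGL14 higher, where 1.89% of all genes tested were called. In suvh2/9 limma called 0 of 7, against 0.571% of all genes. SOC1 was the 1 gene of 7 called in rrm1 (4.03% of all genes), in pdp1/2/3 (18.3%) and in pdp1/2/3;rrm1 (17.8%). The members whose 2 libraries lay wholly above or below those of Col-0 numbered 3 in fve, 3 in suvh2/9, 3 in rrm1, 4 in pdp1/2/3 and 4 in pdp1/2/3;rrm1. The share of all genes that did so was 46.8%, 33%, 53.2%, 59.4% and 60.9%, so these counts were near the background. The median log2 difference of the 7 genes was -0.02 in fve, 0.21 in suvh2/9, 0.02 in rrm1, 0.01 in pdp1/2/3 and -0.11 in pdp1/2/3;rrm1, with medians over all genes within 0.01 of 0.

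**Figure D2:**
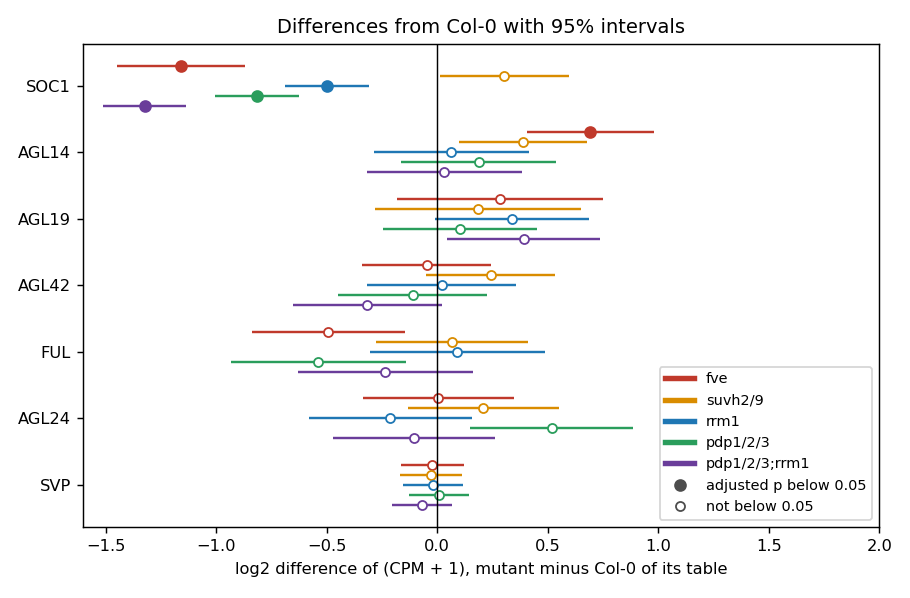
Log2 difference of CPM + 1 from the Col-0 pair of the same table for the 7 tested genes (rows) in 5 mutants (colours); lines are 95% intervals from limma and filled points are calls at an adjusted p below 0.05. SOC1 lies left of 0 in 4 mutants, from -0.50 to -1.32, AGL14 in fve is the other filled point at 0.69, and SVP stays within 0.07 of 0 throughout.

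AGL14 (AT4G11880, also known as XAANTAL2), which acts in root development and auxin transport and also promotes flowering, went the other way from SOC1 in fve. It was at 2.29 and 2.02 CPM in Col-0, 4.13 and 4.06 in fve, and 3.33 and 2.92 in suvh2/9, so both mutant pairs lay above Col-0. AGL14 rose in fve by 0.69 on the log2 scale (SE 0.132, limma adjusted p = 0.0202), a ratio of means of 1.90. In suvh2/9 the difference was 0.39 (limma adjusted p = 0.498, ratio 1.45), and fve against suvh2/9 gave 0.31 (limma adjusted p = 0.323). The call in fve was lost without any 1 of the 4 libraries compared (limma adjusted p = 0.0939 to 0.181) and with no filter on low values (0.0953). Of 10 root markers, all above 0, PYK10, a root beta-glucosidase gene, made up most of the sum and was at 1440 and 1497 CPM in fve and 1611 and 1616 in Col-0. The other 9 summed higher in fve, to 170.3 and 178.7 CPM against 135.2 and 129.4, and 160.2 and 164.3 in suvh2/9. Most of that rise was the iron transporter gene IRT1. It was at 57.1 to 72.3 CPM in fve, 49.7 to 51.5 in suvh2/9 and 15.5 to 32.9 in Col-0. Of the 10, IRT1 alone was called in fve, higher by 1.47 on the log2 scale (limma adjusted p = 0.00752, lost under 3 of 13 alternatives). The part of root markers in the AGL14 result was not tested. Across the second table AGL14 was between 1.82 and 2.54 CPM in all 8 libraries, with differences from Col-0 of 0.03 to 0.19 and no call.

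The SOC1, AGL14 and AGL19 messages are alike at their start, where the MADS domain is encoded, which bears on whether short reads can be told apart. The first 180 coding bases of each are shown from the TAIR10.1 RefSeq genome, at chr2:18810014-18810193 (minus strand), chr4:7143512-7143691 (plus strand) and chr4:12027242-12027421 (minus strand). Capitals mark bases unlike SOC1, of which AGL14 has 26 and AGL19 has 33.
SOC1: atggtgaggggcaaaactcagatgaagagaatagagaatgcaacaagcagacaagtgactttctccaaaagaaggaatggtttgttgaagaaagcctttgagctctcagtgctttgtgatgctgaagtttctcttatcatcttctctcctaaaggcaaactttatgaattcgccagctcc
AGL14: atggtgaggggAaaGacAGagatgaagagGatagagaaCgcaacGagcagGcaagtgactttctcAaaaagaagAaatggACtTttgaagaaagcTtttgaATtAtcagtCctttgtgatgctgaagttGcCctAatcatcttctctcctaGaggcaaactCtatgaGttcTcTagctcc
AGL19: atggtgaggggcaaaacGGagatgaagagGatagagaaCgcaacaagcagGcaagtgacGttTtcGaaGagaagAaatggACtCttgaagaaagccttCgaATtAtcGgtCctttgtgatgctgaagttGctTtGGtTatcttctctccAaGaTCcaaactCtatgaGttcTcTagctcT
Over aligned coding sequence SOC1 was 68.4% identical to AGL14 and 67.1% to AGL19, and AGL14 was 80.7% identical to AGL19. No stretch of 50 bases, the read length, within a single exon block of any of the 9 genes had an exact copy elsewhere in the genome. Reads that cross exon junctions, inexact copies and exon blocks shorter than 50 bases were not screened. The longest run within an exon block that any 2 members share was 29 bases (AGL14 and AGL42). None of the 9 genes overlaps another annotated gene. In TAIR10.1, SOC1 spans chromosome 2, 18807505 to 18811125 (minus strand, 1553 exonic bases), AGL14 chromosome 4, 7142922 to 7147391 (plus), and AGL19 chromosome 4, 12023824 to 12028004 (minus).

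AGL19 (AT4G22950), a promoter of flowering after cold that acts apart from FLC and is held down by Polycomb proteins, was low in all groups and was not called. In the second table it was at 1.23 and 1.27 CPM in Col-0, 1.69 and 2.00 in rrm1, 1.15 and 1.71 in pdp1/2/3, and 2.03 and 1.88 in pdp1/2/3;rrm1. The rrm1 and pdp1/2/3;rrm1 pairs lay above Col-0 and the pdp1/2/3 pair spanned it. The differences were 0.34 in rrm1 (95% interval -0.01 to 0.68, limma adjusted p = 0.279) and 0.39 in pdp1/2/3;rrm1 (95% interval 0.04 to 0.74, limma adjusted p = 0.115). In the first table the libraries of fve (1.16 and 2.13 CPM) and suvh2/9 (1.88 and 1.04) overlapped with Col-0 (1.24 and 1.03). These levels rest on 22.2 to 45.7 adjusted counts per library.

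AGL42 (AT5G62165, chromosome 5, 24964646 to 24968607, plus strand) is expressed in the root quiescent centre and, with AGL71 and AGL72, promotes flowering in apical and axillary meristems downstream of gibberellin. It was at 3.71 and 3.33 CPM in Col-0, 3.11 and 3.65 in fve and 4.65 and 4.05 in suvh2/9. Its second-table levels were 5.03 and 3.92 in Col-0, 4.29 and 4.77 in rrm1, 4.77 and 3.42 in pdp1/2/3, and 3.42 and 3.34 in pdp1/2/3;rrm1. Of the 5 mutant pairs those of suvh2/9 and pdp1/2/3;rrm1 alone were clear of their Col-0 pair, on opposite sides, with log2 differences of 0.24 (limma adjusted p = 0.86) and -0.32 (limma adjusted p = 0.188). AGL71 (AT5G51870, chromosome 5, 21085462 to 21088414, minus strand) and its neighbour AGL72 (AT5G51860, 21081844 to 21084427, minus strand) failed the filter. The highest level of AGL71 in any library was 0.141 CPM, or 3.02 adjusted counts, in suvh2/9 replicate 1, and AGL72 was at 0 in 13 libraries and at 0.993 adjusted counts in fve replicate 2. A count of 0 allows up to 3 counts, which is 0.14 CPM in the first table and 0.156 in the second (counting error only), so no difference in either gene was detectable at this depth and no fold was computed.

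FUL (AT5G60910, chromosome 5, 24502434 to 24506269, minus strand), which acts alongside SOC1 in the shoot apex and later in fruit, was near 1 CPM and not called in any mutant. In the first table it was at 1.24 and 1.27 CPM in Col-0, 0.650 and 0.554 in fve, and 1.50 and 1.22 in suvh2/9. Levels in the second table were 0.768 and 1.22 in Col-0, 0.945 and 1.28 in rrm1, 0.419 and 0.311 in pdp1/2/3, and 0.800 and 0.573 in pdp1/2/3;rrm1. The fve and pdp1/2/3 pairs lay below Col-0, the rrm1 and pdp1/2/3;rrm1 pairs overlapped with it, and the pdp1/2/3 values rest on 8.05 and 5.97 adjusted counts. The ratio of means was 0.480 in fve (log2 -0.49, 95% interval -0.84 to -0.15, limma adjusted p = 0.168) and 0.368 in pdp1/2/3 (log2 -0.54, 95% interval -0.93 to -0.14, limma adjusted p = 0.0606). For pdp1/2/3 the choice of setting decided the call: FUL passed with a pseudocount of 0.1 (log2 -1.21, limma adjusted p = 0.0382), with no filter (0.0437) and with no mean-variance trend (0.0325). It passed the filter of the first table through Col-0 and suvh2/9 alone, and that of the second through Col-0 replicate 4 and rrm1 replicate 2.

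AGL24 (AT4G24540, chromosome 4, 12670897 to 12674106, minus strand), which promotes flowering together with SOC1, was highest in pdp1/2/3 within the second table but missed the threshold. It was at 2.36 and 2.44 CPM in Col-0, 1.64 and 2.26 in rrm1, 3.51 and 4.25 in pdp1/2/3, and 1.77 and 2.61 in pdp1/2/3;rrm1. The pdp1/2/3 pair lay above the other 6 libraries. Its difference from Col-0 was 0.52 (95% interval 0.15 to 0.89, limma adjusted p = 0.0526, ratio of means 1.62), and pdp1/2/3;rrm1 against pdp1/2/3 gave -0.62 (95% interval -0.99 to -0.26, limma adjusted p = 0.076). The first of these passed with only the 2 groups in the fit (limma adjusted p = 0.0358), without pdp1/2/3;rrm1 replicate 1 (0.0395) or 2 (0.0406), and without the first rrm1 and first pdp1/2/3;rrm1 libraries (0.0379). In the first table AGL24 was at 6.42 and 5.67 CPM in Col-0, 5.33 and 6.88 in fve and 6.01 and 8.42 in suvh2/9, with overlapping groups and no call.

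SVP (AT2G22540, chromosome 2, 9579647 to 9583901, plus strand), which represses SOC1 and FT as a partner of FLC and is the closest relative of AGL24 here (69.1% of aligned coding bases), was the most even member. It was at 87.4 and 94.4 CPM in Col-0, 85.4 and 93.7 in fve and 90.6 and 87.6 in suvh2/9, so the groups overlapped. In the second table it lay between 103 and 111 CPM in all 8 libraries. The largest difference from Col-0 was -0.07 in pdp1/2/3;rrm1 (95% interval -0.21 to 0.07, limma adjusted p = 0.5), where the pair lay below Col-0, and the 95% intervals of the 5 mutants together ran from -0.21 to 0.14.

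**Figure D3:**
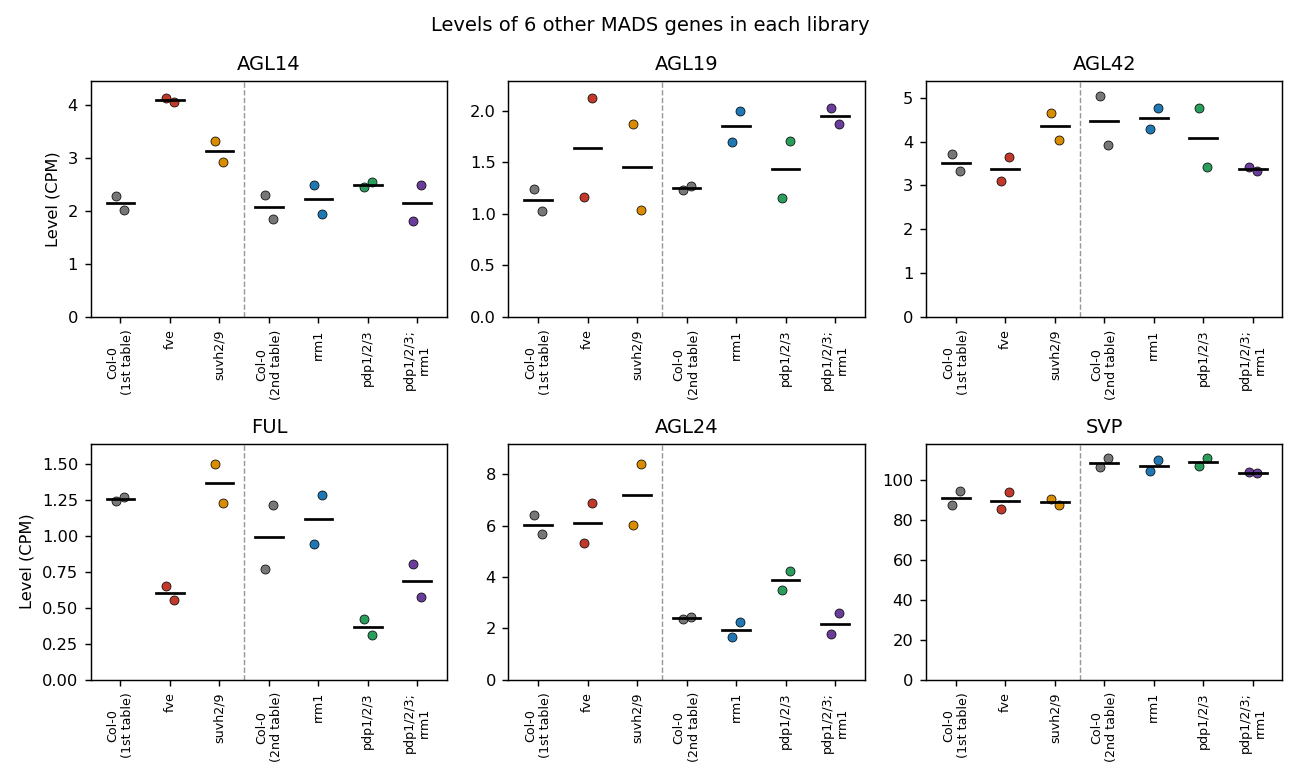
Levels (CPM, each axis from 0 with its own scale) of AGL14, AGL19, AGL42, FUL, AGL24 and SVP in each library; points are libraries, bars are means of 2, and the dashed line parts the tables. AGL14 stands at 4.13 and 4.06 in fve above all other libraries, FUL is lowest in pdp1/2/3 at 0.419 and 0.311, and SVP varies little within a table.

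Per kilobase of exon, which adjusts levels for gene length, SVP and SOC1 were far above the other members in Col-0. The length used joins all annotated exons of a gene and may differ from that of the transcripts present, so the order among the lower members is approximate. In the first table SVP was at 50.8 ± 2.74 CPM per kilobase (SD, n = 2), SOC1 at 24.9 ± 3.14, AGL24 at 5.24 ± 0.457, AGL42 at 2.20 ± 0.170 and AGL14 at 1.44 ± 0.131. FUL (0.961 ± 0.0152) and AGL19 (0.924 ± 0.119) differed by less than the SD of AGL19. In the second table the order was SVP (60.6 ± 1.86), SOC1 (40.7 ± 0.701), AGL42 (2.79 ± 0.489), AGL24 (2.08 ± 0.0465), AGL14 (1.39 ± 0.215), AGL19 (1.02 ± 0.0230) and FUL (0.761 ± 0.243). The fall of SOC1 changed its distance to SVP but not its rank: in fve SOC1 was at 10.9 ± 2.60 per kilobase beside 50.0 ± 3.26 for SVP, and in pdp1/2/3;rrm1 at 15.9 ± 1.11 beside 57.7 ± 0.197.

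Direct comparisons between mutants put the SOC1 differences side by side, and SOC1 was the 1 member of 7 called in each. SOC1 was lower in fve than in suvh2/9, with a log2 difference of -1.46 (SE 0.133, limma adjusted p = 0.000138), where 2.06% of all genes were called. In pdp1/2/3;rrm1 against pdp1/2/3 the SOC1 difference was -0.51 (SE 0.0867, limma adjusted p = 0.0106; 2.96% of all genes called), beside -0.50 for rrm1 in the Col-0 background. Against rrm1 it was -0.82 (SE 0.0867, limma adjusted p = 0.00019; 7.96% of all genes called), beside -0.82 for pdp1/2/3 in the Col-0 background. Both pairs of values differ by the same amount, the interaction given below, so their closeness is not separate evidence. Groups did not overlap for 4 of 7 members in fve against suvh2/9, 6 in pdp1/2/3;rrm1 against pdp1/2/3 and 4 against rrm1, where 42.7%, 43% and 52.6% of all genes did not. The fall in pdp1/2/3;rrm1 against pdp1/2/3 missed the threshold with no filter (limma adjusted p = 0.0531) and with no mean-variance trend (0.0587), and without the first rrm1 and first pdp1/2/3;rrm1 libraries it was -0.58 (0.0354). Without those libraries SOC1 against rrm1 was at -0.96 (limma adjusted p = 0.00233).

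The interaction of rrm1 with pdp1/2/3 asks whether the 4 mutations together differ from the sum of both parts. For SOC1 the sum of the rrm1 and pdp1/2/3 differences was -1.32, beside -1.32 measured in pdp1/2/3;rrm1. The same libraries give this comparison and the direct ones above, and by arithmetic all of them differ by the interaction alone. The interaction was -0.01 (SE 0.123, 95% interval -0.28 to 0.26, limma adjusted p = 0.989), so a departure from the sum of up to about that size in either direction was not resolved. Limma called 0 of 7 members, against 0.301% of all genes. AGL24 had the interaction farthest from 0, at -0.41 (95% interval -0.93 to 0.11, limma adjusted p = 0.545): the sum of both parts was 0.31 and the measured difference -0.11. Leaving out libraries moved the SOC1 interaction between -0.14 and 0.09, and none of these values was called.

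**Figure D4:**
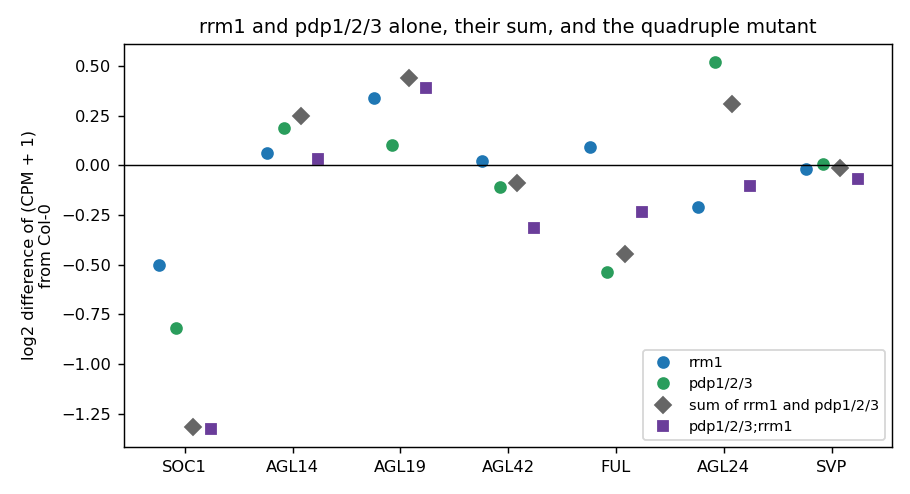
Log2 difference of CPM + 1 from Col-0 for the 7 tested genes in rrm1 (blue circles) and pdp1/2/3 (green circles), the sum of both (grey diamonds) and the value measured in pdp1/2/3;rrm1 (purple squares). For SOC1 the diamond and the square coincide at -1.32, and for AGL24 they lie at 0.31 and -0.11; the interaction was not called for any of the 7.

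Genes known to act around SOC1 were read from a list of 24, of which 14 could be tested in the first table and 15 in the second. The 10 upstream repressors in it were all tested. FLC, MAF4 and MAF5 entered both tests only through mutant libraries in which they were high: in the first table the fve pair alone reached 1 CPM, and in the second no Col-0 library did, so their calls are a description. Counts of risers that hold these genes cannot be read against the share of all genes called. In fve 3 of the 14 rose and 0 fell (1.89% of all genes tested were called), and all 3 are these genes. FLC, MAF5 and MAF4, MADS-box repressors of the FLC clade, rose by 3.16, 1.86 and 1.34 on the log2 scale. In suvh2/9 limma called 0 of 14 (0.571% of all genes). In rrm1 4 of 15 rose and 0 fell, against 4.03% of all genes called, MAF5, MAF4 and the AP2/B3-type repressors TEM1 and TEM2 (log2 2.50, 1.49, 1.77 and 1.64), while FLC was at 0.550 and 0.410 CPM against 0.411 and 0.318 in Col-0 and was not called (log2 0.12). The lower rrm1 value of FLC, 0.410 CPM, overlapped only narrowly with the higher Col-0 value, 0.411, and the other rrm1 value lay above both Col-0 values. In fve FLC was at 11.1 and 11.4 CPM against 0.321 and 0.422 in Col-0. The part of FLC or of the other repressors in the SOC1 result was not tested.

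In pdp1/2/3 5 of 15 rose and 2 fell, where 18.3% of all genes were called. FLC, MAF4 and MAF5 are among the risers here and in pdp1/2/3;rrm1, so neither count can be read against such a share. FLC, MAF4, MAF5, TEM1 and TEM2 rose by 1.87, 0.92, 2.46, 1.93 and 2.02, and the AP2-type repressor SNZ and the age-pathway promoter SPL9 fell by 0.72 and 0.91 on the log2 scale. In pdp1/2/3;rrm1, with 17.8% of all genes called, 5 of 15 rose, FLC by 2.85, MAF4 by 2.39, MAF5 by 3.61, TEM1 by 2.02 and TEM2 by 2.00, and 2 fell, SNZ by 0.36 and SPL9 by 0.93 on the log2 scale. The SNZ call in pdp1/2/3;rrm1 was lost under 5 of 15 alternatives (limma adjusted p up to 0.268). FLC stood at 8.81 and 8.86 CPM in pdp1/2/3;rrm1, 2.99 and 5.23 in pdp1/2/3 and 0.411 and 0.318 in Col-0. Where more than 3 of these genes were called in a mutant, the others were named after their values were seen. FT, the mobile flowering signal that activates SOC1, was below the filter in all groups, at 0.642 CPM or less. CO, TSF, SPL3, SPL5, SPL15, LFY, AP1 and CAL were below it too. In fve FT was at 0 and 0.0925 CPM (0 and 1.99 adjusted counts) against 0.642 and 0.516 in Col-0 (13.8 and 11.1). With no filter the log2 difference was -0.59 (limma adjusted p = 0.151). FT was at 0 in both pdp1/2/3;rrm1 libraries, against 0.1535 and 0.2644 CPM in Col-0. In 1 library a count of 0 allows up to 0.156 CPM (counting error only), above the lower of these Col-0 values and below the higher. FT was below the filter, so the main fit did not test this difference. The suvh2/9, rrm1 and pdp1/2/3 pairs overlapped with Col-0. The part of FT in the SOC1 result was not tested. The photoperiod gene GI, the FT partner FD and the SOC1 target SPL4 were tested and not called in any mutant, although FD passed as higher in pdp1/2/3;rrm1 under 4 of 15 alternatives (log2 0.54 to 0.78, limma adjusted p down to 0.0362). Of 5 MADS genes known from roots (AGL12, AGL16, AGL17, AGL21 and ANR1) 0 were called in any mutant against Col-0, the nearest being ANR1 in pdp1/2/3 (log2 -0.42, limma adjusted p = 0.0518), which passed under 4 of 15 alternatives (limma adjusted p down to 0.0398).

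**Figure D5:**
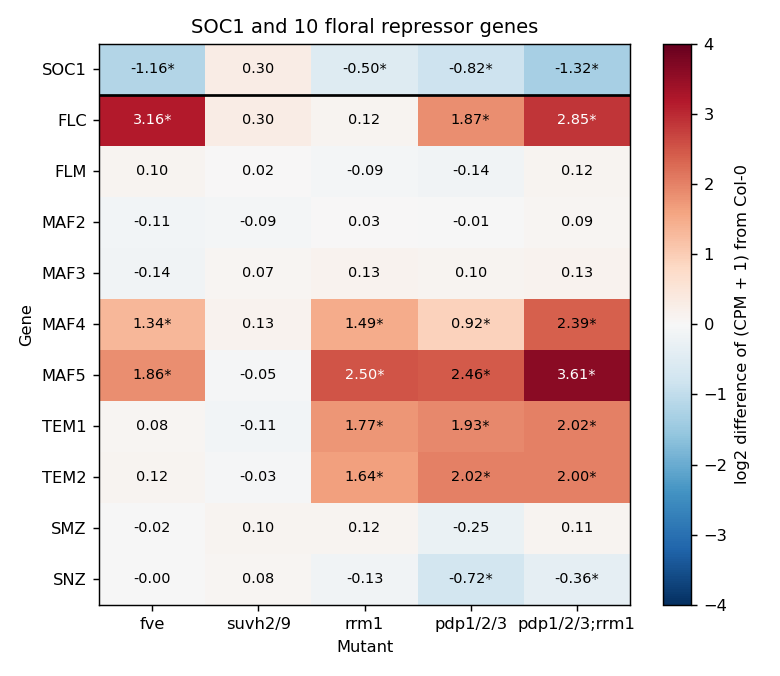
Log2 difference of CPM + 1 from Col-0 (numbers and colour, red higher and blue lower) for SOC1 and 10 floral repressor genes in 5 mutants, with stars for an adjusted p below 0.05. In fve SOC1 stands at -1.16, FLC at 3.16, MAF4 at 1.34, MAF5 at 1.86 and TEM1 at 0.08. In rrm1 SOC1 stands at -0.50, FLC at 0.12, MAF4 at 1.49, MAF5 at 2.50 and TEM1 at 1.77. FLC, MAF4 and MAF5 passed the filter only through mutant libraries in which they were high, so their stars are a description. The part of these repressors in the SOC1 result was not tested.

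Repressors of the FLC clade bind CArG boxes, and the 250 bases before the annotated SOC1 start hold near matches to that form but no exact one. Bases farther upstream and those after this start were not scanned. The 250 bases upstream of the annotated SOC1 start are shown from TAIR10.1 RefSeq, chr2:18811126-18811375, minus strand, with capitals for matches to the CArG box with at most 1 mismatch, at -46 to -37 and at -17 to -8 from the start.
SOC1 upstream: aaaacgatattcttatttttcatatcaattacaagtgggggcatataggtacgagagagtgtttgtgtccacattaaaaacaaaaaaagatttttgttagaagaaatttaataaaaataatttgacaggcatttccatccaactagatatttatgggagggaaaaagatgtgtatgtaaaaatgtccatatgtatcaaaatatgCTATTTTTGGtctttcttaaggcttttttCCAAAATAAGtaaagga
Within such windows, read on both strands, 0 of the 9 genes held an exact CArG box and 2, SOC1 and AGL42, held a match within 1 mismatch. Over 27443 gene starts the shares were 2.52% for an exact match and 34.7% within 1 mismatch. These letters describe the window and no more, and binding was not measured.

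Some markers of flower organs and roots were called in mutants in which SOC1 fell. The 6 flower-organ markers (AP3, PI, AG, SEP1, SEP2 and SEP3) summed to 2.18 and 1.80 CPM in fve against 3.90 and 3.24 in Col-0. In the second table they summed to 19.0 and 14.9 in rrm1, 10.7 and 10.5 in pdp1/2/3;rrm1, 4.04 and 4.92 in pdp1/2/3 and 6.47 and 4.25 in Col-0. AP3 was at 0 in fve replicate 1 and SEP1 in both of these Col-0 libraries, and SEP2 was near 0 in suvh2/9 replicate 1 and pdp1/2/3;rrm1 replicate 2. SEP3 was the largest part of these sums in all libraries of the first table and was the 1 marker of the 6 tested there. SEP3 fell in fve (log2 -0.90, limma adjusted p = 0.0353), a call lost under 6 of 13 alternatives, among them leaving out any 1 of the 4 libraries compared. PI and SEP3 rose in rrm1 (log2 1.70 and 1.31) and PI in pdp1/2/3;rrm1 (log2 1.86), under every alternative tried. PI passed the filter only through the rrm1 and pdp1/2/3;rrm1 libraries in which it was high. The other markers were low and not tested. In rrm1 AP3 lay above Col-0, at 0.446 to 0.770 CPM against 0.160 to 0.308, and SEP1 was at 0.05065 to 0.2515 against 0. AG (0.1465 to 0.5141 against 0.205 to 0.2646) and SEP2 (0.201 and 0.0508 against 0.257 and 0.107) overlapped with Col-0 there. In fve SEP1 was higher, at 0.278 and 0.369 CPM against 0.183 and 0.234 in Col-0, and AP3 was lower, at 0 to 0.0462 against 0.0916 to 0.0938. The part of these markers in the SOC1 result was not tested. Root markers summed to 2191 and 1842 CPM in rrm1 and 1421 to 1734 in the other 6 libraries of the second table. Without PYK10, which was at 1998 and 1657 in rrm1 and 1572 or less in the other 6, they summed to 193.0 and 185.4 in rrm1 and 137.1 to 183.6 in the others. Of these, IRT1 was at 61.43 to 65.85 CPM in rrm1, 50.55 to 67.59 in pdp1/2/3;rrm1, 34.95 to 47.98 in pdp1/2/3 and 20.1 to 44.61 in Col-0. EXPA7 rose in rrm1 (log2 0.67, limma adjusted p = 0.0136) and IRT1 in pdp1/2/3;rrm1 (log2 0.94, limma adjusted p = 0.0317), calls lost under 4 and 6 of 15 alternatives, and their part was not tested either.

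Genes whose 5 log2 differences were most like those of SOC1 were sought among 14450 genes with a mean of at least 5 CPM in each table, by the root mean square distance over the 5 mutants. The nearest were AT5G05060 (distance 0.32), AT1G31690 (0.34), AT5G27410 (0.41), PIP5K5 (AT2G41210, 0.42) and AAO2 (AT3G43600, 0.42), where the median gene lay at 0.91. AT5G05060 was at -0.53 in fve, 0.14 in suvh2/9, -0.23 in rrm1, -0.77 in pdp1/2/3 and -1.22 in pdp1/2/3;rrm1, and was called in fve, in pdp1/2/3 and with all 4 mutations. None of the 5 was called in rrm1, where their differences ran from -0.35 to 0.03, and no member of the 9 genes was among them.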

How the data were processed

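RNA was extracted with Trizol and sequenced as single-end 50-base reads, per the labels' protocols. HISAT2, featureCounts, edgeR and the build TAIR10 are named, without versions or roles, per the submitters' processing notes. For every gene and library the authors deposited a normalised signal, with the libraries of each table brought to nearly equal totals by the authors; the method is not given in the sources used here. Values are near whole numbers at low levels only and in 2 libraries not even there, so no count test was run. Replicate pairs differed by more than counting error (chi-square per gene 2.65 to 7.07).

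Each value was divided by the common total of its table and multiplied by 1e+06 (CPM). Genes that reached 1 CPM in 2 or more libraries of their table entered limma 3.58.1 (R 4.3.3, mean-variance trend, 1 fit per table over all groups) on log2(CPM + 1), two-sided, Benjamini-Hochberg over all genes tested, at 0.05. Comparisons numbered 9, each within a table; the tables were normalized separately and nothing was tested between them. The script was tested on simulated data. Alternatives were a pseudocount of 0.1, no filter, no trend, only the groups compared, other scalings, a replicate block and each library left out; leaving out 2 libraries together was added after seeing the data. Totals of 18609045 to 21722950 set the floor of 3 counts at 0.14 and 0.156 CPM, for counting error only. Genome positions, exon lengths and sequences are from TAIR10.1 RefSeq; the deposited tables hold no coordinates. The 9 genes, the lists and the markers were chosen with earlier results of these data known. Named beyond the 9 were up to 3 called genes per list and comparison with the smallest p, and the 5 genes most like SOC1.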

Additional observations from a re-analysis of the deposited data

How the results depend on the processing

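For the 7 tested members, 910 values were recomputed under an alternative: 890 kept their direction or lacked a call on both sides, 12 lost a call, 8 gained a call and 0 reversed with a call, while 52 values that were not called changed sign. SOC1 in fve lost its call with no filter (log2 -1.16, limma adjusted p = 0.068), and so 0 members were called there. Leaving out a library moved SOC1 in fve between -1.39 and -0.93 and in rrm1 between -0.56 and -0.44 on the log2 scale. The members called then numbered 1 to 2 in fve, 0 to 1 in rrm1 and 1 to 2 in pdp1/2/3, where AGL24 was the second. Without the first rrm1 and first pdp1/2/3;rrm1 libraries together SOC1 in rrm1 was at -0.44 (limma adjusted p = 0.0709), 0 members were called in rrm1 and 2 in pdp1/2/3. In pdp1/2/3 2 members were called with a pseudocount of 0.1, with no filter, with no trend (FUL the second in each) and with only the groups compared (AGL24 the second). With no trend 2 members were called in fve against suvh2/9, FUL being the second (limma adjusted p = 0.0333), and 0 in pdp1/2/3;rrm1 against pdp1/2/3, as also with no filter. AGL14 in fve lost its call under 5 of 13 alternatives. Among the 15 tested flowering genes around SOC1, 5 of 1039 values lost a call (all SNZ in pdp1/2/3;rrm1) and 4 gained one (all FD there), and among the 5 root MADS genes 4 of 355 gained one (all ANR1 in pdp1/2/3). Markers lost a call in 19 of 1278 values and gained one in 8, all of IRT1. Where a lone library was left in a group it was assumed to vary like the others. The causes were not tested.

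The deviations of same-numbered libraries correlated at 0.01 (Col-0 with fve), 0.14 (Col-0 with suvh2/9) and 0.20 (fve with suvh2/9) in the first table, and at -0.10, -0.04 and -0.01 between the mutants of the second. Not every pair was above 0.1 in either table, so the numbers were not taken to pair the libraries. With the replicate number as a block SOC1 stayed called in fve (log2 -1.16, limma adjusted p = 3.13e-06), fve against suvh2/9 (1.63e-07), pdp1/2/3;rrm1 against pdp1/2/3 (0.0254) and against rrm1 (0.000643), and it was not called in suvh2/9 (0.112). Over all genes the block moved the calls in fve against Col-0 from 361 to 643, in suvh2/9 from 109 to 178, and between mutants from 394 to 698, 570 to 431 and 1531 to 1184. No paired analysis was possible for the mutants of the second table against Col-0 or for the interaction because their replicate numbers are not shared. With only the groups compared, the interaction uses the whole table and has no separate value.

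Counts of calls over all genes moved with these settings too. Against Col-0, 361 were called in fve (110 to 650 over the alternatives), 109 in suvh2/9 (54 to 178), 775 in rrm1 (206 to 1752), 3513 in pdp1/2/3 (1839 to 3576) and 3427 in pdp1/2/3;rrm1 (1553 to 3836). Between mutants, 394 were called in fve against suvh2/9 (113 to 698), 570 in pdp1/2/3;rrm1 against pdp1/2/3 (167 to 576) and 1531 against rrm1 (435 to 1818), and 58 in the interaction (2 to 345).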

Other observations

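Some members and markers sat at other levels in the 2 Col-0 pairs, which were not tested against each other. AGL24 was at 6.42 and 5.67 CPM in the first Col-0 pair and at 2.36 and 2.44 in the second, and SOC1 went the other way, at 35.3 and 42.2 against 64.0 and 62.4. STM, the shoot meristem gene, was between 1.41 and 2.52 in all 6 libraries of the first table and between 0.319 and 0.852 in all 8 of the second, while GI was at 37.4 ± 0.891 and 102 ± 5.89 (SD, n = 2) in the Col-0 pairs. The SOC1 level in rrm1 (44.4 ± 2.79) was therefore above that of the first Col-0 pair (38.7 ± 4.88), although it was below its own. The tables were normalized separately, so the rrm1 level is read only against the Col-0 pair of its own table.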
